A study of Mus musculus with 14 samples.

Results

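The MYC network is a family of transcription factors that share 1 partner protein. Its 10 genes considered here are Myc, Mycn, Mycl, Max, Mxd1, Mxd3, Mxd4, Mxi1, Mnt and Mga. A probe set is the group of short array probes that reads 1 transcript. Every probe set that the platform annotation pairs with 1 of these symbols, and with no other gene, was taken, 22 of the 22626 tested. The network thus stands for 10 of 12393 genes with a probe set of their own. Myc, Max and Mxd1 had 1 probe set each and the other 7 genes had 2 to 4. Red cell precursors were laser-captured from sections of frozen mouse yolk sac at embryonic day 9.5, and their RNA was measured on 14 Affymetrix arrays. Of these, 3 came from KLF1-/- KLF2-/- embryos, 3 from KLF1-/- embryos and 8 from wild-type embryos, all labelled as strain FVB/N. KLF1, a Krüppel-like factor, switches on many red cell genes, and KLF2 is its relative. The title of the series places c-myc, the product of Myc, in 1 network with both factors, and the comparisons below ask how the genes of the MYC network differ between the genotypes.

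Each array held RNA pooled from 2 to 4 yolk sacs of 2 litters, and genotypes were read by PCR from each embryo's tail. The mothers named were KLF1+/- or KLF1+/- KLF2+/-. Whether arrays shared litters is not stated in the labels, so p-values measure the spread between these pools. The numbers in the sample titles form 2 runs, 1 to 8 and 9 to 15. The first run has the KLF1-/- arrays (5, 6 and 8) with wild-type arrays 1 to 4, and the other has the KLF1-/- KLF2-/- arrays (13 to 15) with wild-type arrays 9 to 12. The labels do not call these runs batches. Values are the deposited log2 expression values, on which a difference of 1 is a doubling of signal.

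MYC, MYCN and MYCL bind DNA only as a pair with MAX, and mainly switch on genes of growth, ribosome production and metabolism. MXD1, MXI1, MXD3, MXD4, MNT and MGA compete for the same MAX partner and repress. The preferred site of these pairs is the E-box CACGTG. In red cell precursors MYC is known for supporting division, and its level falls as the cells mature. Mouse embryos without Myc die in mid-gestation with defects of blood and yolk sac vessels. In a whole-tissue or pooled measurement, fewer cells of a type and less RNA per cell cannot be told apart.

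E-boxes are shown first because the network proteins bind such sites, and some of its genes carry them in their own promoters. RefSeq promoters (GRCm38.p6, 250 bases before to 50 after each gene's start) were listed for 9 of the 10 genes, with 11 promoters in all; Myc had no entry. CACGTG, which reads the same on both strands, lay in the promoters of 3 of the 9 genes, Max, Mnt and Mxd4. That was 3 of 11 promoters, against 7.15% of all 32851 listed promoters. Each is printed below 5′ to 3′ on the strand of its gene, with the E-box in capitals.
Max, chr12:76962226-76962271 (minus strand): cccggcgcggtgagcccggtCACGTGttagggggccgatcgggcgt
Mnt, chr11:74830781-74830826 (plus strand): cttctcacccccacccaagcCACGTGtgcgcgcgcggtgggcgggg
Mxd4, chr5:34187904-34187949 (minus strand): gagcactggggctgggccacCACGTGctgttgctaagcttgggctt
Counted from the annotated start at 0, the Max E-box spans positions −3 to 2. The Mnt and Mxd4 sites begin at −123 and −219. The CACC box CCNCNCCC, the motif that Krüppel-like factors bind, was searched on both strands, where its matches can overlap one another. It lay in promoters of 8 of the 9 genes (10 of 11 promoters), against 49.5% of all listed promoters. Max was the exception. A match describes the letters of the window and says nothing of whether a factor binds there.

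The labels could not be fully checked through the deleted genes, because the labels do not place their probe sets relative to the deletions. Klf1 signal ran from 8.56 to 9.59 in KLF1-/- KLF2-/-, from 9.03 to 9.79 in KLF1-/- and from 10.05 to 11.82 in wild type. Every mutant array thus lay below every wild-type array for Klf1. Klf2 signal ran from 6.36 to 7.003 in KLF1-/- KLF2-/-, from 5.99 to 6.53 in KLF1-/- and from 5.90 to 6.59 in wild type. Klf2 was not lower in KLF1-/- KLF2-/-, where its log2 change against wild type was 0.44 (unadjusted p = 0.0263 in limma). The captured material held bright erythroid genes, such as the embryonic globin Hbb-y at 14.42 ± 0.11 in wild type (SD, n = 8), and also bright markers of other cells, such as Afp of visceral endoderm at 13.62 ± 0.25.

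No probe set of the network passed the test in any comparison of genotypes. The test was limma's moderated test over all 22626 probe sets with Benjamini-Hochberg adjustment, called at an adjusted p under 0.05. In KLF1-/- KLF2-/- against wild type, 0 of 22 network probe sets were called, where 0.0221% of all probe sets were. In KLF1-/- against wild type 0 of 22 were called, where 0.0265% of all were. Between KLF1-/- KLF2-/- and KLF1-/- the count was again 0 of 22, and 0% of all probe sets were called. At an unadjusted p under 0.05 the counts were 2 of 22 in KLF1-/- KLF2-/- against wild type (2.11% of all), 0 of 22 in KLF1-/- against wild type (1.92% of all) and 0 of 22 between the mutant genotypes (0.628% of all). The 2 were Myc, which was lower in KLF1-/- KLF2-/-, and 1 probe set of Mycl, which was higher.

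**Figure D1:**
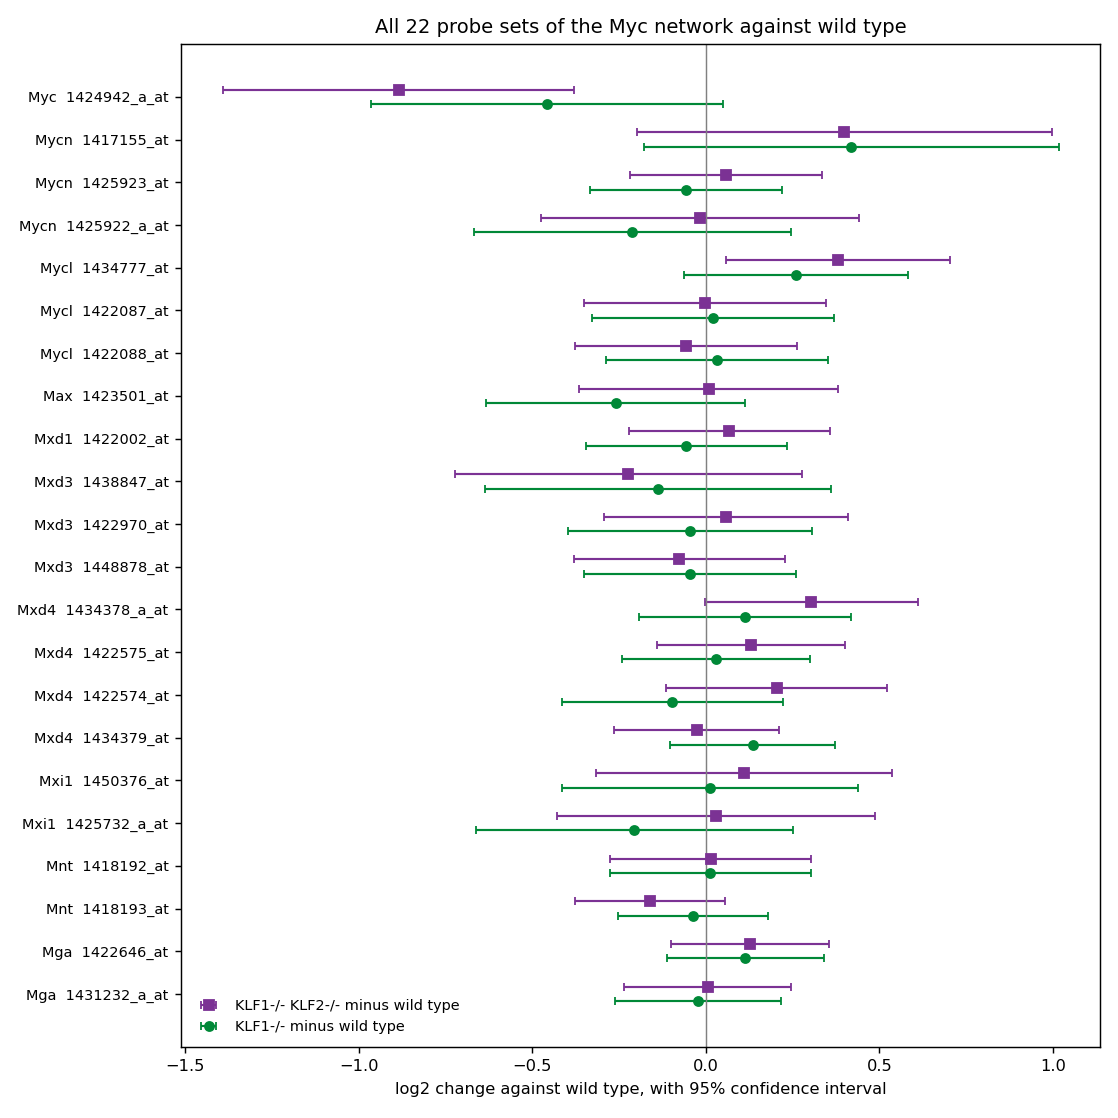
Log2 change of each of the 22 network probe sets against wild type, KLF1-/- KLF2-/- (squares, 3 arrays) and KLF1-/- (circles, 3 arrays) against 8 wild-type arrays, with 95% confidence intervals. The Myc interval in KLF1-/- KLF2-/- lies wholly below 0 and that of Mycl 1434777_at wholly above it; the other intervals of both comparisons include 0, and none of the 22 probe sets passed the adjusted test.

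Myc (probe set 1424942_a_at) encodes c-MYC. Its log2 expression was 6.32, 6.81 and 6.26 on the KLF1-/- KLF2-/- arrays. It was 6.72, 7.37 and 6.57 on the KLF1-/- arrays. The wild-type arrays ran from 6.78 through a median of 7.42 to 7.88. Of the KLF1-/- KLF2-/- arrays, 1 lay just above the lowest wild-type array and the other 2 lay below all 8. Of the KLF1-/- arrays, 2 lay below all 8 and 1 lay near the wild-type median. Group means were 6.46 ± 0.30 in KLF1-/- KLF2-/- (SD, n = 3), 6.89 ± 0.42 in KLF1-/- (SD, n = 3) and 7.35 ± 0.38 in wild type (SD, n = 8). Against wild type the log2 change was −0.88 in KLF1-/- KLF2-/- (95% confidence interval −1.39 to −0.38), or 0.541 of the wild-type signal, with an adjusted p of 0.788 in limma. It was −0.46 in KLF1-/- (−0.96 to 0.05), or 0.728 of wild type, with an adjusted p of 0.9998. Its unadjusted p in KLF1-/- KLF2-/- was 0.00215, rank 60 of 22626. Over all probe sets, 0.141% had a lower change than Myc in KLF1-/- KLF2-/- and 0.535% had a lower change in KLF1-/-.

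The Myc difference between the mutant genotypes was tested directly. KLF1-/- KLF2-/- minus KLF1-/- was −0.43 (95% confidence interval −1.04 to 0.18, adjusted p = 1 in limma), and the arrays of the 2 genotypes overlapped. The interval includes 0 and also reaches past the distance of KLF1-/- KLF2-/- from wild type. No title run holds both mutant genotypes, so this comparison, for Myc and for every other probe set, also spans the 2 runs. With the run as a block, 5 of the 21 other network probe sets turned sign in it. By mean Myc level the order was KLF1-/- KLF2-/-, KLF1-/- and wild type from low to high, and no 2 neighbours in that order differed beyond their spread. Of the 27 alternative analyses of KLF1-/- KLF2-/- against wild type, Myc passed in 2, with adjusted p-values from 3.93e-05 to 1 over all 27. With the first principal component of the arrays as a covariate its change was −0.95 (adjusted p = 0.0238 in limma), and with array weights, which did not converge, −1.002 (adjusted p = 3.93e-05). With array weights the other 2 comparisons passed as well, at −0.74 in KLF1-/- (adjusted p = 0.00454) and −0.27 between the mutant genotypes (0.00495).

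An exact two-sided permutation test of the Myc means gave p = 0.0121 for KLF1-/- KLF2-/- against wild type, 0.0727 after adjustment over 6 such comparisons; the smallest p that 3 against 8 arrays allow is 0.00606. For KLF1-/- against wild type the exact permutation p was 0.109 (0.218 adjusted). For the 2 mutant genotypes it was 0.3 (0.36 adjusted), in a design that cannot go below 0.1. None of these passed 0.05 after adjustment.

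Myc did not separate the wild-type arrays by title run. Wild-type arrays 9 to 12 read 7.88, 7.21, 7.47 and 6.86, against 7.70, 7.39, 7.45 and 6.78 for arrays 1 to 4, a difference of 0.02 (exact permutation p = 0.914). Within the runs the values stayed close to the pooled ones. KLF1-/- KLF2-/- minus wild type 9 to 12 was −0.90 (95% confidence interval −1.49 to −0.30, adjusted p = 1 in limma). All 3 of those mutant arrays lay below all 4 wild-type arrays of their run, and the exact permutation p was 0.0571 (0.171 adjusted, smallest possible 0.0286). KLF1-/- minus wild type 1 to 4 was −0.45 (−1.04 to 0.15), with overlapping arrays and an exact permutation p of 0.171.

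Markers of other cells were read beside Myc. Megakaryocyte markers had log2 changes above 0 for 6 of 6 genes in both mutant genotypes, and their mean level per array ran from 7.84 to 8.33 in KLF1-/- KLF2-/-, from 7.56 to 7.81 in KLF1-/- and from 7.15 to 7.64 in wild type. Mesenchyme markers were above 0 for 7 of 7 in KLF1-/- KLF2-/- and 3 of 7 in KLF1-/-, with mean levels of 10.10 to 10.47 in KLF1-/- KLF2-/-, 9.60 to 10.49 in KLF1-/- and 9.47 to 10.64 in wild type. Erythroid markers were above 0 for 4 of 6 in KLF1-/- KLF2-/- and 0 of 6 in KLF1-/-, with mean levels of 11.75 to 12.47 in KLF1-/- KLF2-/-, 11.84 to 12.07 in KLF1-/- and 11.82 to 12.68 in wild type. In KLF1-/- KLF2-/- 4 of 8 visceral endoderm, 4 of 7 endothelial and 6 of 7 macrophage markers were above 0, and in KLF1-/- 6 of 8, 6 of 7 and 2 of 7 of these were. Set against the wild-type arrays of the own run, the visceral endoderm count was 8 of 8 in KLF1-/- KLF2-/- (median 0.19) and 3 of 8 in KLF1-/- (median −0.12), and the erythroid count was 3 of 6 in both. Between the wild-type runs, 9 to 12 minus 1 to 4, 0 of 8 visceral endoderm markers were above 0 (median −0.40). The megakaryocyte count stayed at 6 of 6 in both mutant genotypes against the own run, and it was also 6 of 6 between the wild-type runs. The median megakaryocyte change was 0.58 in KLF1-/- KLF2-/- and 0.27 in KLF1-/- against all wild type. Against the own run the medians were 0.51 and 0.42, and between the wild-type runs the median was 0.18. Against all wild type, 5 of 6 megakaryocyte markers had an unadjusted p under 0.05 in KLF1-/- KLF2-/- (2.11% of all probe sets). In KLF1-/- it was 1 of 6 (1.92% of all). No other marker list had more than 1 such gene in either comparison, and no marker was called. Ppbp, of megakaryocytes, had log2 changes of 1.53 in KLF1-/- KLF2-/- (adjusted p = 0.197 in limma) and 0.25 in KLF1-/-. Vwf, of the same list, had 1.23 in KLF1-/- KLF2-/- (adjusted p = 0.634 in limma) and 0.48 in KLF1-/-. The erythroid gene Slc4a1 had −0.88 in KLF1-/- KLF2-/- and −0.92 in KLF1-/-, and Alas2 had 0.31 and −0.05. The part of the cells marked by these lists in the Myc values was not tested.

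**Figure D2:**
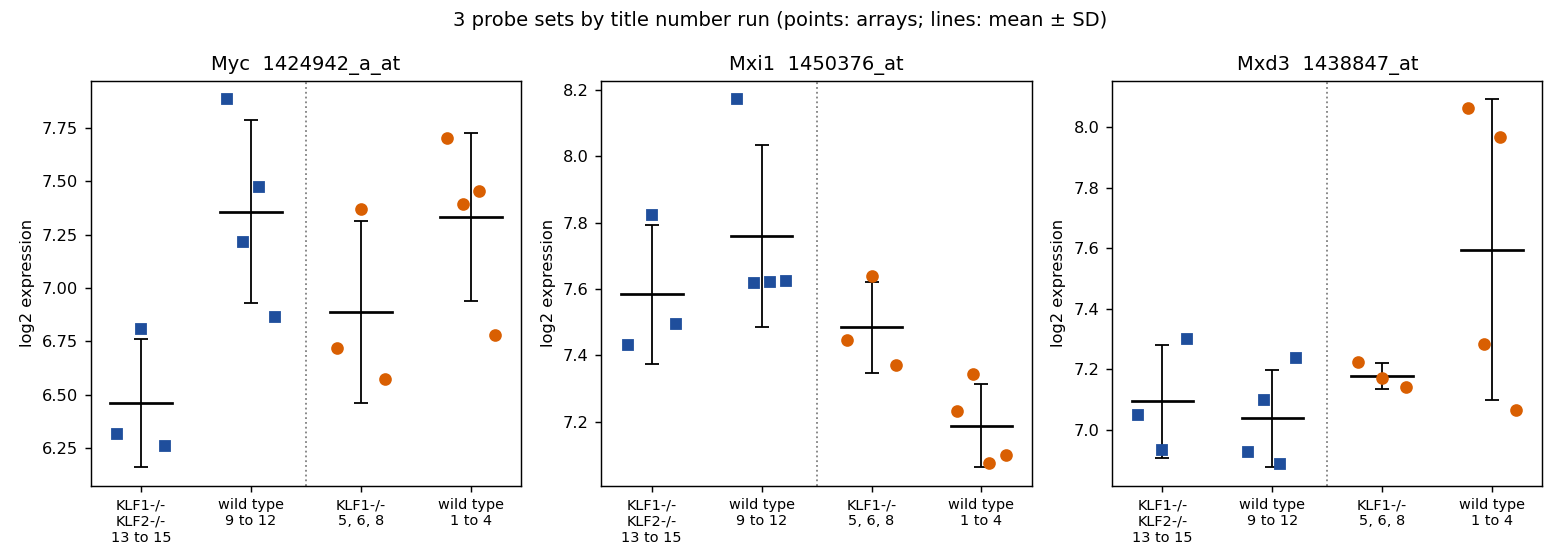
Log2 expression of 3 network probe sets by title run, each mutant genotype left of the wild-type arrays of its own run, with points for arrays and lines for mean ± SD. Myc has like wild-type levels in both runs, whereas Mxi1 1450376_at is higher and Mxd3 1438847_at is lower on average in wild type 9 to 12 than in wild type 1 to 4.

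Mycn encodes N-MYC, a close relative with which MYC shares much of its function in embryos. Its brightest probe set, 1417155_at, read 9.01, 9.15 and 8.49 in KLF1-/- KLF2-/-. It read 8.19, 9.82 and 8.70 in KLF1-/-, against 8.05 to 8.90 with a median of 8.52 in wild type. The 3 KLF1-/- arrays were thus spread more widely than the 8 wild-type arrays. The log2 changes were 0.40 in KLF1-/- KLF2-/- (95% confidence interval −0.20 to 1.00) and 0.42 in KLF1-/- (−0.18 to 1.02), the widest intervals of the network against wild type. The KLF1-/- change rested on 1 array: it was −0.04 without KLF1-/- replicate 6, and 0.78 without KLF1-/- replicate 5. The other 2 Mycn probe sets did not follow it. Probe set 1425923_at had a log2 change of 0.06 in KLF1-/- KLF2-/- and −0.06 in KLF1-/-. For 1425922_a_at the log2 change was −0.02 in KLF1-/- KLF2-/- and −0.21 in KLF1-/-. Over the 14 arrays 1417155_at correlated negatively with both, at Pearson r = −0.666 and −0.720.

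These opposed Mycn readings moved with the spread of the arrays. The interquartile range of an array's log2 values ran from 2.38 to 2.84 in KLF1-/- KLF2-/-, from 2.45 to 3.12 in KLF1-/- and from 2.31 to 2.89 in wild type. Over the 14 arrays 1417155_at had a Pearson r of 0.858 with that range, and 1425923_at and 1425922_a_at had −0.823 and −0.773. The points share their arrays and the range is computed from the same tables, so this is a description. KLF1-/- replicate 6, the array with the widest range, had the highest value of 1417155_at and the lowest of 1425923_at among all 14. The part of the array spread in the Mycn values was not tested.

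**Figure D3:**
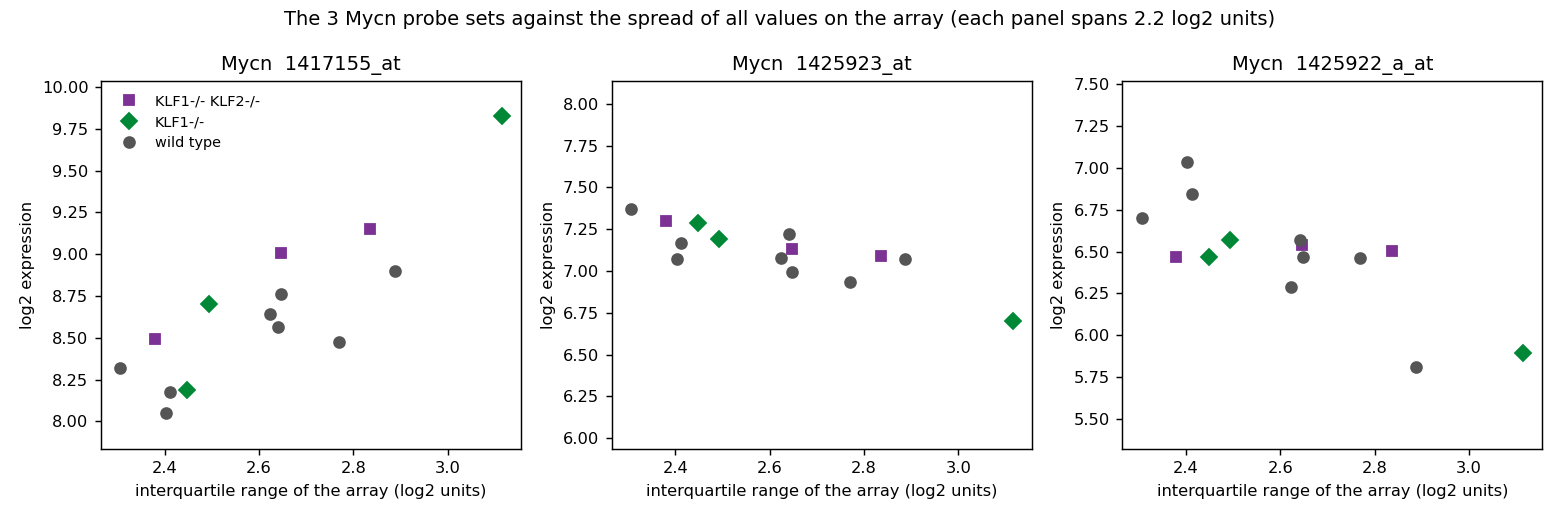
Log2 expression of the 3 Mycn probe sets against the interquartile range of all log2 values on the same array, 1 point per array, by genotype. The signal of 1417155_at is higher on arrays with a wide range (Pearson r = 0.858, n = 14) and those of the other 2 probe sets are lower (r = −0.823 and −0.773).

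Mycl encodes L-MYC, the third and least studied of the family. Its brightest probe set, 1434777_at, read 6.06, 5.88 and 6.43 in KLF1-/- KLF2-/- and 5.86, 5.81 and 6.35 in KLF1-/-. The wild-type arrays ran from 5.50 through 5.78 to 5.93. Of the KLF1-/- KLF2-/- arrays 2 stood above all wild-type arrays, as did 1 KLF1-/- array, and the rest lay within the wild-type range. The log2 change was 0.38 in KLF1-/- KLF2-/- (95% confidence interval 0.06 to 0.70, unadjusted p = 0.0242, adjusted p = 0.9999 in limma). It was 0.26 in KLF1-/- (−0.06 to 0.58). Against wild type 9 to 12 the KLF1-/- KLF2-/- change was 0.42, and against wild type 1 to 4 the KLF1-/- change was 0.22. The remaining Mycl probe sets, 1422087_at and 1422088_at, had log2 changes of −0.0016 and −0.06 in KLF1-/- KLF2-/- and of 0.02 and 0.03 in KLF1-/-. They are dim, at percentiles 17.05 and 9.16 of all probe sets. Probe set 1434777_at, though the brightest of Mycl, also lay below the median of all probe sets, at percentile 33.90. Of the 22 network probe sets, 14 had a mean below that median. Max and Mxd1 were among them, at percentiles 37.64 and 37.73.

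Max encodes the partner that all the other members share. Its single probe set, 1423501_at, read 6.004, 5.81 and 6.57 in KLF1-/- KLF2-/- and 5.79, 5.62 and 6.16 in KLF1-/-. Wild type ran from 5.88 through 6.03 to 6.44. The highest value was a KLF1-/- KLF2-/- array and the lowest a KLF1-/- array. The log2 change was 0.01 in KLF1-/- KLF2-/- (95% confidence interval −0.37 to 0.38) and −0.26 in KLF1-/- (−0.63 to 0.11), and KLF1-/- KLF2-/- minus KLF1-/- was 0.27 (−0.18 to 0.72).

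**Figure D4:**
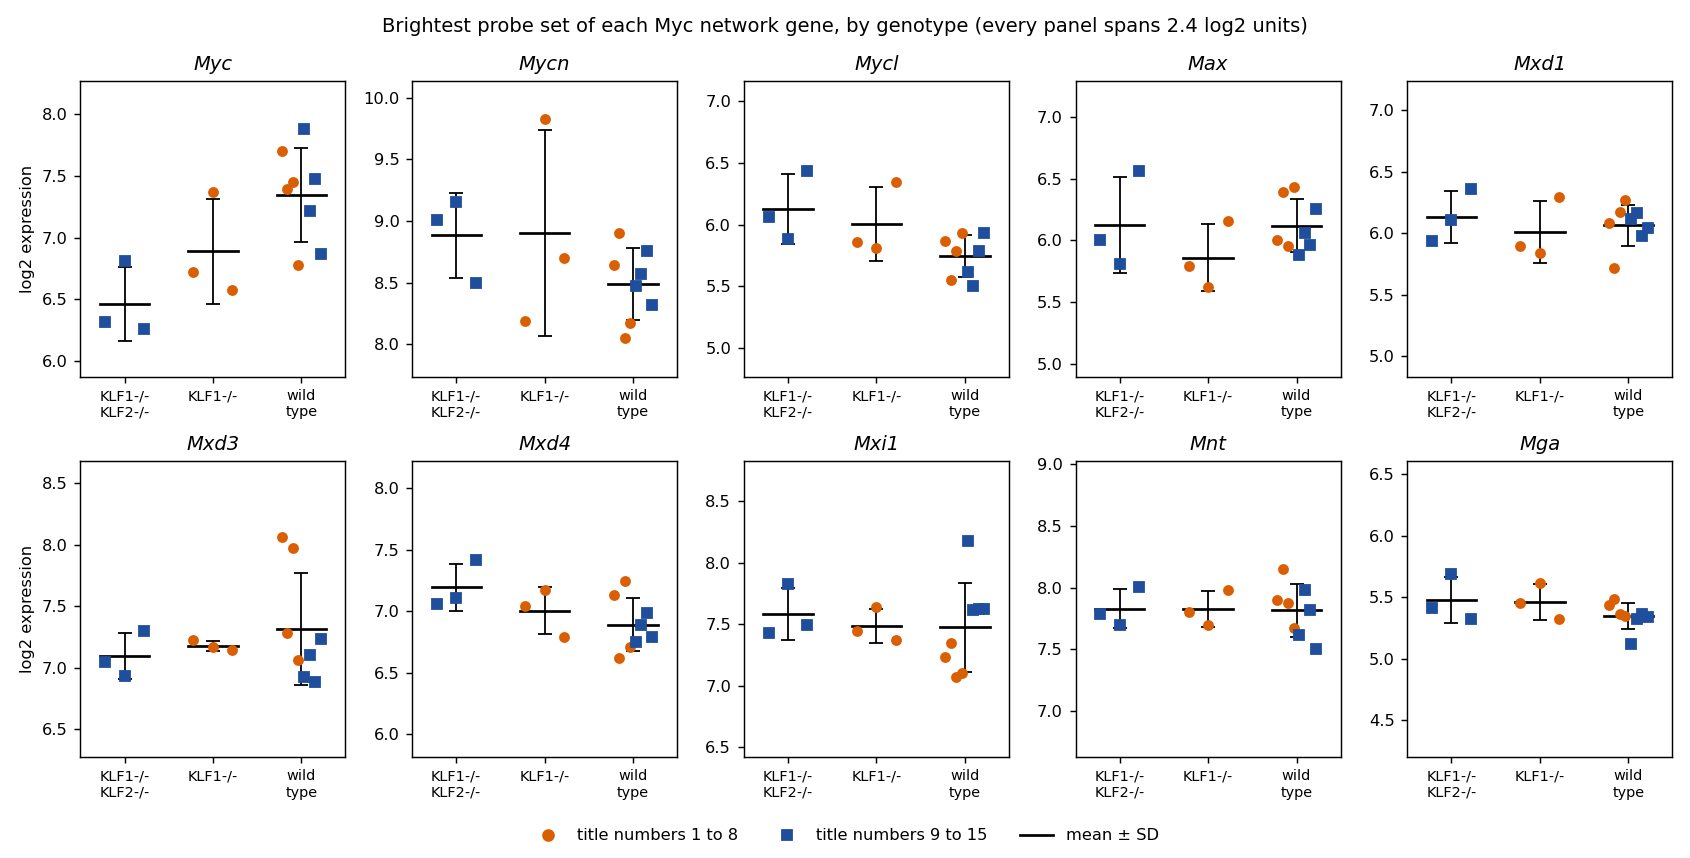
Log2 expression of the brightest probe set of each network gene on every array, by genotype, with mean ± SD; circles are title numbers 1 to 8 and squares 9 to 15, and every panel spans the same 2.4 log2 units. In every panel the arrays of each mutant genotype overlap with the wild-type arrays; for Myc, 2 arrays of each mutant genotype lie below all 8 wild-type arrays.

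The MXD proteins are the classic antagonists of MYC, and several rise as cells leave the cycle. Mxd1 (1422002_at) averaged 6.13 ± 0.21 in KLF1-/- KLF2-/- (SD, n = 3), 6.01 ± 0.25 in KLF1-/- (SD, n = 3) and 6.07 ± 0.17 in wild type (SD, n = 8). Its log2 change was 0.07 in KLF1-/- KLF2-/- and −0.06 in KLF1-/-. The upper bound of its change was 0.36 in KLF1-/- KLF2-/- and the lower bound −0.35 in KLF1-/-.

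Mxd4 was the antagonist with the most readings. Its brightest probe set, 1434378_a_at, read 7.06, 7.11 and 7.41 in KLF1-/- KLF2-/- and 7.05, 7.17 and 6.79 in KLF1-/-. Wild type ran from 6.62 through 6.84 to 7.24. The log2 change was 0.30 in KLF1-/- KLF2-/- (95% confidence interval −0.0023 to 0.61, adjusted p = 0.9999 in limma) and 0.11 in KLF1-/- (−0.19 to 0.42). All 3 KLF1-/- KLF2-/- arrays were above the 4 wild-type arrays of their run, which read 6.75 to 6.99. Against those arrays the change was 0.34 (−0.02 to 0.70). Probe sets 1422574_at and 1422575_at had log2 changes of 0.20 and 0.13 in KLF1-/- KLF2-/- and of −0.10 and 0.03 in KLF1-/-. For the remaining one, 1434379_at, the change was −0.03 in KLF1-/- KLF2-/- and 0.13 in KLF1-/-. So 3 of 4 Mxd4 probe sets were above 0 in each genotype, but not the same 3, and none was called.

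Mxi1, also called Mxd2, encodes an antagonist of the same kind, and its wild-type values were split by title run. Its brightest probe set, 1450376_at, read 7.43, 7.82 and 7.50 in KLF1-/- KLF2-/- and 7.45, 7.64 and 7.37 in KLF1-/-. Wild-type arrays 9 to 12 read 8.17, 7.62, 7.62 and 7.62, while arrays 1 to 4 read 7.23, 7.34, 7.07 and 7.10. The wild-type runs did not overlap. Their difference was 0.57 (95% confidence interval 0.26 to 0.89, unadjusted p = 0.00170, adjusted p = 0.332 in limma). The mutant changes varied with the wild-type arrays they were set against. KLF1-/- KLF2-/- was 0.11 from all wild type and −0.18 from wild type 9 to 12. KLF1-/- was 0.01 from all wild type and 0.30 from wild type 1 to 4, with all 3 arrays above those 4. The other Mxi1 probe set, 1425732_a_at, had a log2 change of 0.03 in KLF1-/- KLF2-/- and −0.21 in KLF1-/- (0.07 without KLF1-/- replicate 6), and the strongest relation of the network to array spread (Pearson r = −0.900 with the interquartile range, n = 14).

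Mxd3, the family member tied to dividing cells, also varied within wild type. Probe set 1438847_at read 7.05, 6.93 and 7.30 in KLF1-/- KLF2-/- and 7.22, 7.17 and 7.14 in KLF1-/-. Wild-type arrays 9 to 12 ran from 6.89 to 7.24 and arrays 1 to 4 from 7.07 to 8.07. The difference of the wild-type runs was −0.56 (95% confidence interval −0.99 to −0.13, unadjusted p = 0.0151, adjusted p = 0.478 in limma). Wild-type replicates 1 and 3 read 8.07 and 7.97, above the other 12 arrays. Against all wild type the changes were −0.22 in KLF1-/- KLF2-/- and −0.14 in KLF1-/-. Against the wild-type arrays of the own run they were 0.06 in KLF1-/- KLF2-/- and −0.42 in KLF1-/-. Probe sets 1422970_at and 1448878_at had log2 changes of 0.06 and −0.08 in KLF1-/- KLF2-/- and of −0.05 each in KLF1-/-.

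Mnt encodes a broadly expressed MAX partner that opposes MYC in dividing and resting cells alike. Its brightest probe set, 1418192_at, averaged 7.83 ± 0.16 in KLF1-/- KLF2-/- (SD, n = 3), 7.83 ± 0.15 in KLF1-/- (SD, n = 3) and 7.81 ± 0.21 in wild type (SD, n = 8). The log2 change was 0.01 in both mutant genotypes, with 95% confidence intervals from −0.28 to 0.30. The other, 1418193_at, had a log2 change of −0.16 in KLF1-/- KLF2-/- (−0.38 to 0.05) and −0.04 in KLF1-/- (−0.25 to 0.18).

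Mga encodes a large MAX partner that carries a T-box as well and sits in a Polycomb complex. Probe set 1422646_at averaged 5.48 ± 0.19 in KLF1-/- KLF2-/- (SD, n = 3), 5.46 ± 0.14 in KLF1-/- (SD, n = 3) and 5.35 ± 0.11 in wild type (SD, n = 8). Its log2 change was 0.13 in KLF1-/- KLF2-/- and 0.11 in KLF1-/-. That of 1431232_a_at was 0.01 in KLF1-/- KLF2-/- and −0.02 in KLF1-/-. Both probe sets lie near the 24th percentile of brightness.

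By count, the 22 probe sets lay on both sides of 0. In KLF1-/- KLF2-/- against wild type 14 of 22 were above 0, with a median change of 0.02; over all probe sets 51.7% were above 0 and the median was 0.00. In KLF1-/- against wild type 10 of 22 were above 0, with a median of −0.03, against 51.9% and 0.01 over all. In KLF1-/- KLF2-/- minus KLF1-/- 14 of 22 were above 0 (median 0.06), against 49.8% of all. The median size of change in the network, whatever its sign, was 0.0721 in KLF1-/- KLF2-/- and 0.0765 in KLF1-/-, against 0.0850 in KLF1-/- KLF2-/- and 0.0933 in KLF1-/- over all probe sets. These comparisons with wild type share the same 8 arrays.

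By arrays rather than by test, no network probe set separated a mutant genotype from all 8 wild-type arrays. The groups did not overlap for 0 of 22 probe sets in KLF1-/- KLF2-/- (0.698% of all) and for 0 of 22 in KLF1-/- (0.513% of all). Against the wild-type arrays of the own run, 3 of 22 did not overlap in KLF1-/- KLF2-/- (4.34% of all): Myc was lower, and Mxd4 1434378_a_at and 1422574_at were higher. In KLF1-/- it was 1 of 22 (2.96% of all), Mxi1 1450376_at. Between the wild-type runs it was also 1 of 22 (3.26% of all), the same Mxi1 probe set.

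In limma within the runs no network probe set was called either. The counts were 0 of 22 in KLF1-/- KLF2-/- against wild type 9 to 12 (0.0265% of all), 0 of 22 in KLF1-/- against wild type 1 to 4 (0.00884% of all) and 0 of 22 between the wild-type runs (0% of all). At an unadjusted p under 0.05 they were 2 of 22 for KLF1-/- KLF2-/- (1.84% of all), Myc and Mycl 1434777_at, and 0 of 22 for KLF1-/- (3.02% of all). Between the wild-type runs there were 2 of 22 (7.92% of all), Mxi1 1450376_at and Mxd3 1438847_at.

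Across the 14 arrays the brightest probe sets of the network were compared with Myc. Mycl had a Pearson r of −0.750 with Myc and Max −0.388, while Mycn had 0.051, Mxd3 0.281 and Mxi1 0.215. With the genotype means removed the r with Myc was −0.548 for Mycl, −0.735 for Max, 0.582 for Mycn, 0.125 for Mxd3 and 0.480 for Mxi1. For Mxd4 it was −0.210 over the 14 arrays and 0.332 with the genotype means removed. In the same order it was −0.312 and −0.356 for Mxd1, −0.053 and −0.038 for Mnt, and −0.139 and 0.292 for Mga. Outside the network, the 5 genes whose pattern over the arrays was most like Myc, of 10369 probe sets above median brightness, were Ndufaf4 (r = 0.881), Timm10 (0.874), Tcea1 (0.872), Dlat (0.869) and Fastkd5 (0.868). Ndufaf4 helps assemble the first complex of the mitochondrial respiratory chain, Timm10 is a chaperone of mitochondrial protein import, and Dlat is a subunit of pyruvate dehydrogenase. Tcea1 is a transcription elongation factor and Fastkd5 acts on mitochondrial RNA. Ndufaf4 averaged 7.04 ± 0.68 in KLF1-/- KLF2-/- (SD, n = 3), 7.35 ± 0.63 in KLF1-/- (SD, n = 3) and 7.86 ± 0.37 in wild type (SD, n = 8). With the genotype means removed its r with Myc was 0.802, and those of the other 4 were 0.803, 0.852, 0.895 and 0.885 in the order given. The 5 genes were picked by r on these same 14 arrays, so their r values, with or without genotype means, are raised by the choice. The arrays share their spread of values, and none of the 5 was called.

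Genes that MYC is known to act on were read from lists, each gene by its brightest probe set. Of 37 genes known to be activated by MYC, 34 were measured and 0 were called in any comparison. In KLF1-/- KLF2-/- 8 of the 34 were above 0, with a median change of −0.07, and in KLF1-/- 15 were, with a median of −0.08. Over all 12393 genes 52.1% were above 0 in both comparisons and the medians were 0.01. Without adjustment, 3 of the 34 had a p under 0.05 in KLF1-/- KLF2-/- (2.11% of all probe sets). In KLF1-/- 1 of the 34 had (1.92% of all). Against the own run, 10 of the 34 were above 0 in KLF1-/- KLF2-/- (median −0.11), where 56.1% of all genes were. In KLF1-/- 14 were (median −0.06), where 47.2% of all genes were. Between the wild-type runs, 9 to 12 minus 1 to 4, 22 of the 34 were above 0 (median 0.06), where 46.5% of all genes were. Nop56, a core protein of the particles that modify ribosomal RNA, averaged 9.29 ± 0.09 in KLF1-/- KLF2-/- (SD, n = 3), 9.52 ± 0.27 in KLF1-/- (SD, n = 3) and 9.69 ± 0.15 in wild type (SD, n = 8), with log2 changes of −0.40 in KLF1-/- KLF2-/- and −0.17 in KLF1-/-. Tfrc, the transferrin receptor that brings iron into red cell precursors, averaged 9.87 ± 0.45 in KLF1-/- KLF2-/- (SD, n = 3), 9.90 ± 0.35 in KLF1-/- (SD, n = 3) and 11.40 ± 0.68 in wild type (SD, n = 8). Its log2 change was −1.53 in KLF1-/- KLF2-/- (adjusted p = 0.574 in limma) and −1.49 in KLF1-/- (adjusted p = 0.720). Against the wild-type arrays of the own run the Tfrc change was −1.96 in KLF1-/- KLF2-/- (adjusted p = 0.101 in limma) and −1.07 in KLF1-/- (adjusted p = 0.9998). The wild-type runs differed by 0.86 for Tfrc, 9 to 12 minus 1 to 4.

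Of 7 genes known to be repressed by MYC, all were measured and 0 were called; without adjustment, 3 had a p under 0.05 in KLF1-/- KLF2-/- and 2 had in KLF1-/-, where 2.11% of all probe sets had in KLF1-/- KLF2-/- and 1.92% in KLF1-/-. In KLF1-/- KLF2-/- 6 of 7 were above 0, with a median change of 0.26. In KLF1-/- all 7 were, with a median of 0.12. Against the own run these counts were 7 in KLF1-/- KLF2-/- (median 0.28) and 6 in KLF1-/- (median 0.11). Between the wild-type runs, 9 to 12 minus 1 to 4, 3 of 7 were above 0 (median −0.02). Gadd45a, a stress and growth arrest gene, averaged 9.70 ± 1.27 in KLF1-/- KLF2-/- (SD, n = 3), 9.49 ± 0.39 in KLF1-/- (SD, n = 3) and 8.26 ± 0.73 in wild type (SD, n = 8), with log2 changes of 1.44 in KLF1-/- KLF2-/- (adjusted p = 0.9999 in limma) and 1.23 in KLF1-/-. Ndrg2, whose gene family is named after N-MYC, averaged 7.05 ± 0.14 in KLF1-/- KLF2-/- (SD, n = 3), 7.10 ± 0.09 in KLF1-/- (SD, n = 3) and 6.73 ± 0.23 in wild type (SD, n = 8). Its log2 change was 0.33 in KLF1-/- KLF2-/- and 0.37 in KLF1-/-.

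No gene was called among the proteins that work with the network. Of 17 MYC cofactors 14 were measured, and 8 were above 0 in KLF1-/- KLF2-/- and 10 in KLF1-/-. Dmap1 and Hcfc1, which work with MYC at chromatin, had log2 changes of 0.33 and −0.29 in KLF1-/- KLF2-/- and of 0.25 and 0.11 in KLF1-/-. Of 16 genes that set the stability of MYC protein 13 were measured, and 11 were above 0 in KLF1-/- KLF2-/- (median 0.10) and 12 in KLF1-/- (median 0.13). Against the wild-type arrays of the own run, 6 of these 13 were above 0 in KLF1-/- KLF2-/- (median −0.01) and 13 in KLF1-/- (median 0.23). The wild-type runs themselves differed by a median of 0.26, with 4 of 13 at an unadjusted p under 0.05 (7.92% of all probe sets). Skp2, part of a ubiquitin ligase for MYC, had a log2 change of 0.43 in KLF1-/- KLF2-/- and 0.09 in KLF1-/-. For Gsk3b, a kinase that marks MYC for destruction, it was 0.17 in KLF1-/- KLF2-/- and 0.26 in KLF1-/-. Of 15 genes of the SIN3 corepressor that MXD proteins recruit 12 were measured, and 7 were above 0 in KLF1-/- KLF2-/- and 10 in KLF1-/-; against the own run these counts were 8 in KLF1-/- KLF2-/- and 6 in KLF1-/-. Its scaffold genes Sin3b and Sin3a had log2 changes of 0.33 and −0.17 in KLF1-/- KLF2-/- and of 0.16 and 0.02 in KLF1-/-.

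Of 14 genes of the Polycomb complex that holds MGA, 10 were measured, and 5 were above 0 in KLF1-/- KLF2-/- and 4 in KLF1-/-. Pcgf6 and Rnf2, a pair of its core subunits, had log2 changes of −0.28 and 0.30 in KLF1-/- KLF2-/- and of −0.15 and 0.35 in KLF1-/-. All 3 genes of the parallel MLX branch, which senses sugar, were measured, and 0 were above 0 in KLF1-/- KLF2-/- and 3 in KLF1-/-. Against the own run these counts were 1 in KLF1-/- KLF2-/- and 2 in KLF1-/-. In wild type 9 to 12 minus wild type 1 to 4 the count was 0. Mlx, the MAX-like partner, had a log2 change of −0.22 in KLF1-/- KLF2-/- and 0.12 in KLF1-/-. For Mlxipl it was −0.18 in KLF1-/- KLF2-/- and 0.06 in KLF1-/-. Of 15 blood transcription factors 10 were above 0 in KLF1-/- KLF2-/- (median 0.10) and 7 in KLF1-/- (median −0.03). Against the own run the order of these counts turned, with 6 in KLF1-/- KLF2-/- (median −0.11) and 10 in KLF1-/- (median 0.11), and 12 of 15 were above 0 in wild type 9 to 12 minus wild type 1 to 4. None of the genes of these lists was called in limma.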

How the data were processed

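The authors deposited 1 log2 expression value per probe set and array; per the submitters' processing notes GCOS, RMA, affy and limma were used, with no versions given. RMA corrects background, normalizes arrays and summarises probes, which compresses weak signals. The deposited arrays nevertheless did not share 1 distribution, as their interquartile ranges ran from 2.31 to 3.12. The reason was not tested. Per the labels' protocols, 10 to 20 ng of RNA was labelled after 2 cycles of amplification from an oligo(dT) primer. The values ran from 3.29 to 14.7 and were used as deposited. Of 22690 probe sets 64 were controls; of the rest 20380 had 1 gene, 691 several and 1555 none. No array was a copy of another.

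Genotype means were estimated jointly from the 14 arrays using limma 3.58.1 (R 4.3.3; lmFit, then eBayes, two-sided), p-values being adjusted over 22626 probe sets by the Benjamini-Hochberg method. A second fit gave each wild-type run its own mean. The small number of arrays limits precision. The fit was tested on simulated data. Named were all network probe sets and the 5 genes most like Myc. Of each other list, the rule named up to 4 called members, or otherwise the 2 with the smallest p in KLF1-/- KLF2-/- against wild type. Among the cell marker lists only the megakaryocyte and erythroid ones have these genes named, a choice made after their values were seen. Members and lists were chosen with earlier results of these data known. Alternatives changed the run block, normalization, filter, probe set choice, variance model, covariates, array weights and the arrays used. Marker genes named as examples of the captured material, beyond the rule, were chosen after their values were seen. Figures were made with Python 3.11.15 and matplotlib 3.10.9.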

Additional observations from a re-analysis of the deposited data

Results flagged for a closer look

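Among 66 sets of wild-type values of network probe sets (8 arrays, or the 4 of a title run), 9 held 1 array that stood farther from its nearest neighbour than a Dixon test at 95% allows. Chance flags about 1 in 20 such sets, and the sets of 8 share arrays with the sets of 4. Over all 8 wild-type arrays these were Mxd3 1448878_at in replicate 1 at 5.70 (next 5.21), Mxd4 1422574_at in replicate 3 at 6.06 (next 5.68), Mga 1431232_a_at in replicate 3 at 5.78 (next 5.43) and Mga 1422646_at in replicate 9 at 5.12 (next 5.33). Within wild type 1 to 4 they were Mycn 1425923_at in replicate 4 at 7.17 (next 7.08) and Mga 1431232_a_at in replicate 3 at 5.78. Within wild type 9 to 12 they were Mxi1 1450376_at in replicate 9 at 8.17 (next 7.62), Mxd4 1422574_at in replicate 9 at 5.56 (next 5.60) and Mga 1422646_at in replicate 9 at 5.12. Replicate 9 accounts for 4 of the 9 and replicate 3 for 3. Myc was not among them.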

How the results depend on the processing

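No sign of the Myc change turned under any alternative run, while most other members turned under some. Of the 63 changes of the other 21 probe sets in the 3 comparisons, 49 turned sign under at least 1 alternative and 39 on leaving out a single array. Of 1682 alternative values of network probe sets 199 had the sign turned. Leaving out each array in turn moved it between −1.06 and −0.78 in KLF1-/- KLF2-/- against wild type, between −0.70 and −0.30 in KLF1-/- against wild type, and between −0.60 and −0.19 in KLF1-/- KLF2-/- minus KLF1-/-, with no network probe set called. Calls over all probe sets then ran from 1 to 7, from 2 to 7 and from 0 to 1 in that order, against 5, 6 and 0 in the reported fit. With the first principal component of the arrays as a covariate, Myc was −0.95 in KLF1-/- KLF2-/- against wild type and passed (adjusted p = 0.0238), 1 network probe set; calls were 25 there and 10 in KLF1-/-. With array weights, whose estimate did not converge and ran from 0.167 for KLF1-/- replicate 6 to 93.0 for KLF1-/- KLF2-/- replicate 13, Myc was −1.002 in KLF1-/- KLF2-/- (adjusted p = 3.93e-05), −0.74 in KLF1-/- (0.00454) and −0.27 in KLF1-/- KLF2-/- minus KLF1-/- (0.00495). Network and all probe sets called were 3 and 4704, 3 and 1494, and 15 and 13656 in these comparisons. There 12 of the 21 other network values of KLF1-/- KLF2-/- minus KLF1-/- turned sign, and 9 of these passed: Mycn 1417155_at 0.31, Mycl 1434777_at −0.27, Max −0.14, Mxd1 −0.34, Mxd3 1422970_at −0.11 and 1448878_at 0.19, Mxi1 1425732_a_at −0.27, Mnt 1418192_at −0.19 and Mga 1431232_a_at −0.15. The cause was not tested. With a strong prior on the weights, an alternative chosen after seeing the data and likewise not converged, calls were 37, 15 and 1, with no network probe set and Myc at −0.86, −0.66 and −0.19.

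Other counts in KLF1-/- KLF2-/- against wild type were 8 with the brightest probe set per gene, 8 with a filter on dim probe sets, 9 with quantile normalization, 10 with trend and robust variance, and 12 with quantile normalization and the run as a block, the last chosen after seeing the data. In KLF1-/- against wild type they were 2 with the run as a block and 1 with arrays of 1 run. Between the mutant genotypes they were 1 with the brightest probe set, with the filter and with quantile normalization. No paired analysis was possible because the groups share no title number.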
